A study of Homo sapiens with 2 samples.

Results

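PI3-kinases are lipid kinases that phosphorylate the inositol ring of membrane phosphoinositides. The loci examined were those of 10 genes that encode catalytic or regulatory subunits, in the ChIP-seq peak list of MDA-MB-231 cells. The list was made to find where the T-box transcription factor brachyury sits on chromatin. A locus was a gene body, as an interval on hg19 (GRCh37) given to the nearest 1 kb, with 100 kb added on each side, and a peak belonged to it when its midpoint fell inside. By this rule, 11 of 10342 peaks belonged to the 10 loci. The rule uses gene positions alone, but the genes were chosen with earlier results of these data known.

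The series holds 2 libraries from MDA-MB-231, an established human breast cancer cell line, used as wild-type cells without treatment. The label of the first names only the cell line, and it was taken as the brachyury immunoprecipitation because the peak list is an immunoprecipitation set against input. The second is input DNA, labelled as having no antibody. The design text of the series describes RNA of pericardial origin, which goes against these labels, and was set aside. There was 1 library of each kind and 1 peak list, so no error between replicates can be given. Intervals of counts and ratios cover counting error only. The number of reads behind the list is unknown.

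Class I enzymes pair a catalytic with a regulatory subunit and produce the lipid that recruits AKT to the plasma membrane downstream of growth factor receptors and Ras. Class II enzymes act mainly in membrane traffic, and the class III enzyme makes the lipid that marks early endosomes and autophagosomes. T-box factors recognise DNA elements whose half-site reads TCACACCT, and a peak within or near a gene is often read as a candidate contact of the factor with that gene.

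The hg19 sequence under the peaks was not analysed here, so the half-site was looked for in RefSeq promoters of the 10 genes, which run from 250 bases before to 50 bases after a transcript start on GRCh38.p14. All 10 genes matched by symbol, with 21 promoters among them. The full half-site TCACACCT, on either strand (AGGTGTGA), was in 0 of the 21 promoters and in 0.98% of the 35116 promoters of all genes. Its first 6 letters, TCACAC or its reverse complement GTGTGA, which are contained in the full half-site, were in 5 of the 21 promoters and in 12% of all. With 21 promoters for 10 genes, beside 35116 for all 27305 genes, the 10 genes had more places for a match per gene. What this does to the share of genes with a match was not tested. The 5 promoters with a match belonged to 5 genes, where 14.2% of all genes had at least 1 such promoter. Their matches are shown because they are the only places in these windows where the core of the brachyury element can be read, with the 6 letters in capitals and every sequence in the direction of transcription.

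PIK3CD, the match farther from the start (chr1:9689372-9689401, plus strand): tctccgccgcccGTGTGAgctcgggcgctt
PIK3CD, the match nearer to the start (chr1:9689403-9689432, plus strand): tcccggctggggGTGTGAgaatttgccgac
PIK3CG (chr7:106865229-106865255, plus strand): aatgagcaaTCACACgtataatcaact
PIK3R1 (chr5:68290594-68290623, plus strand): attggctggggcGTGTGAtgtaataggttt
PIK3R3 (chr1:46130635-46130664, minus strand): tgagccatgcaaGTGTGAagaagtgtaact
PIK3C2G (chr12:18261498-18261527, plus strand): gtgttttagcttGTGTGAgcgtatttgact

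In PIK3CD the matches ended 154 and 123 bases before the transcript start, in PIK3CG 235 bases, in PIK3R1 52 bases and in PIK3C2G 2 bases before it. The match of PIK3R3 began 21 bases after the start. PIK3CA, PIK3CB and PIK3C3, which held peaks of the list, had no match in their promoters. PIK3CD, PIK3CG and PIK3R1 had a match and held no peak. PIK3R3 and PIK3C2G had a match and held peaks, and PIK3C2A and PIK3C2B had neither. These coordinates are on GRCh38.p14 and cannot be laid over the peaks, whose positions below are on hg19.

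Peaks were found at 5 of the 10 loci, PIK3CA, PIK3CB, PIK3C2G, PIK3C3 and PIK3R3, and at none of the other 5. No peak covered the start of any of the 10 genes, as the hg19 intervals give it. Among windows of the same length laid end to end on the same chromosome, the share with at least 1 peak ran from 43.8% for PIK3CG to 85.1% for PIK3CB. Summed over the 10 loci, these shares come to 6.28 loci with a peak, beside the 5 counted. The distribution of the 11 peaks along the genes is drawn in the map of the loci.

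**Figure D1:**
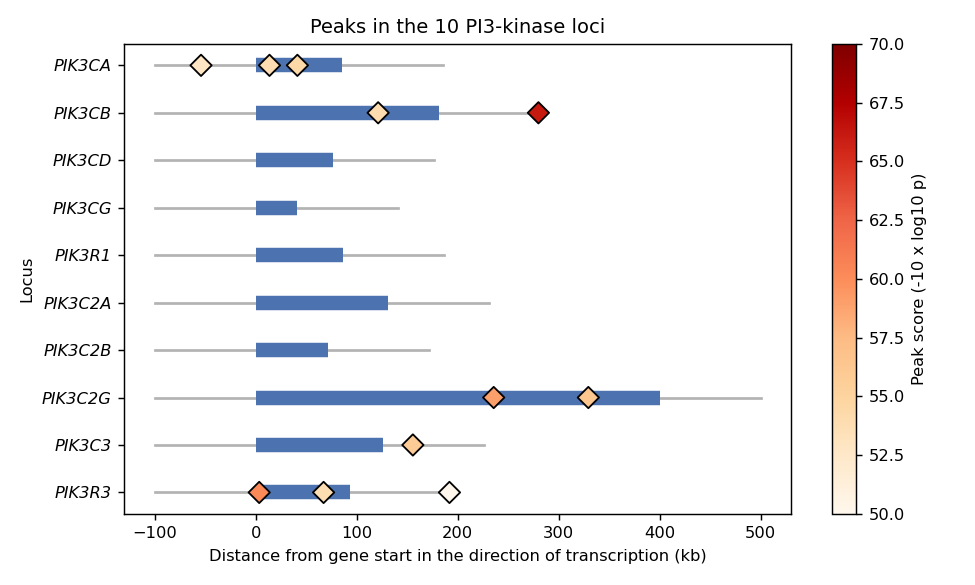
Peaks in the 10 loci. The x axis is the distance in kb from the gene start in the direction of transcription, blue bars are gene bodies, grey lines are the 100 kb flanks and each diamond is a peak coloured by its score (-10 x log10 of the p-value). PIK3CA and PIK3R3 hold 3 peaks each, 5 loci hold none, and the peak nearest to a gene start lies 3.56 kb into PIK3R3.

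The genes of the class I catalytic subunits were taken first. PIK3CA, which encodes the alpha catalytic subunit and is often mutated in breast cancer, lies on chromosome 3 from 178.866 to 178.952 Mb on the plus strand. Its locus held 3 peaks. The first, at chr3:178811451-178812426, was 976 bp wide, scored 52.77 and lay 54.1 kb upstream of the gene start, on the side where ZMAT3 is the next protein-coding gene in RefSeq. The second, at chr3:178879264-178880198, was 935 bp wide, scored 53.86 and lay inside the gene, 13.7 kb from its start. The third, at chr3:178906903-178907827, was 925 bp wide, scored 54.41 and lay 41.4 kb from the start. All 3 scores were close to 50, the limit that the call imposed, and below the list median of 58.8. In windows of the same length on chromosome 3, 76.3% held at least 1 peak and 17.2% held 3 or more.

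PIK3CB encodes the beta catalytic subunit, which also responds to G protein-coupled receptors, and lies on chromosome 3 from 138.372 to 138.554 Mb on the minus strand. Its locus held 2 peaks, where 85.1% of windows of that length on the chromosome held at least 1 and 58.2% held 2 or more. The peak inside the gene, at chr3:138432307-138433045, was 739 bp wide, scored 53.91 and lay 121 kb from the gene start. The other, at chr3:138273538-138274383, was 846 bp wide and lay 98.04 kb past the end of the gene, on the side of FAIM and CEP70. It scored 66.15, the highest score of the 11 peaks, and was only 1.96 kb inside the edge of the locus. Whether this peak lies inside FAIM or CEP70 on hg19 was not analysed here.

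PIK3CD and PIK3CG encode the delta and gamma catalytic subunits, which are found mainly in white blood cells, and neither locus held a peak. PIK3CD lies on chromosome 1 from 9.712 to 9.789 Mb, and PIK3CG on chromosome 7 from 106.506 to 106.547 Mb. On their chromosomes 48.3% and 43.8% of windows of the same length held at least 1 peak, so that an empty window was about as common as one with a peak. The nearest peak was 654 kb from the body of PIK3CD, with a score of 65.24, and 518 kb from that of PIK3CG, with a score of 68.84. RefSeq gives PIK3CD a length of 102 kb on GRCh38.p14, while the hg19 interval spans 77 kb. Both genes lay in long intervals without any peak, of 3427 kb around PIK3CD and 4490 kb around PIK3CG. Intervals at least that long made up 10.1% of chromosome 1 and 6.17% of chromosome 7. Here and below, such shares include the interval around the gene itself, and unassembled sequence was not taken out.

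The regulatory subunits hold the catalytic subunits in check and bring them to phosphorylated receptors. PIK3R3, which encodes the gamma regulatory subunit, lies on chromosome 1 from 46.506 to 46.599 Mb on the minus strand. Its locus held 3 peaks, against 51.1% of windows of that length on chromosome 1 with at least 1 peak and 5.78% with 3 or more. The peak at chr1:46594889-46596000 was 1112 bp wide, scored 60.17 and lay 3.56 kb inside the gene from its start, the shortest such distance among the 10 genes. A second peak inside the gene, at chr1:46531173-46532231, was 1059 bp wide, scored 53.75 and lay 67.3 kb from the start. The third, at chr1:46406556-46407561, scored 50.15 with a width of 1006 bp. It lay 98.9 kb past the end of the gene, on the side of MAST2, and 1.06 kb inside the edge of the locus. Whether this peak lies inside MAST2 on hg19 was not analysed here. Only 1.31% of the list scored 50.15 or less.

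The gene start used for PIK3R3 needs care, because the hg19 interval spans 93 kb while RefSeq gives the gene a length of 135 kb on GRCh38.p14 with 6 promoters. Which of these starts lies nearest to the peak was not analysed here. PIK3R1 encodes the alpha regulatory subunit, the most widely used partner of the class I catalytic subunits, and lies on chromosome 5 from 67.511 to 67.598 Mb. It held no peak in its locus, where 71.9% of windows of that length on chromosome 5 held at least 1. The nearest peak was 194 kb past the end of the gene with a score of 63.69, and the gene lay in an interval of 573 kb without a peak. Intervals at least that long made up 28.4% of chromosome 5.

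Of the class II genes, only PIK3C2G held peaks. It encodes the gamma isoform, which is found mainly in liver, and with 400 kb from 18.401 to 18.801 Mb on chromosome 12 it was the longest of the 10 genes. Both of its peaks lay inside the gene. The peak at chr12:18636394-18637130 was 737 bp wide, scored 58.97 and lay 236 kb from the start, while that at chr12:18730086-18730861 was 776 bp wide, scored 56.42 and lay 329 kb from the start. RefSeq lists PLCZ1 as overlapping this gene on GRCh38.p14, where the gene is 484 kb long and not 400 kb. Whether PLCZ1 reaches either peak on hg19 was not analysed here. Of windows of 600 kb on chromosome 12, 83.3% held at least 1 peak and 61.5% held 2 or more. A peak with a score of 58.92 was left out by 9.23 kb on the downstream side, and one with a score of 77.61 by 26.4 kb on the upstream side. With a gene as long as in RefSeq, the count of 2 could therefore change, which was not analysed here.

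PIK3C2A, needed for clathrin-mediated uptake and the making of cilia, lies on chromosome 11 from 17.099 to 17.230 Mb. PIK3C2B, the beta isoform, lies on chromosome 1 from 204.392 to 204.464 Mb. Neither held a peak in its locus, with 75.3% of windows of the same length on chromosome 11 and 48.6% of those on chromosome 1 holding at least 1. The nearest peaks were 420 kb from the body of PIK3C2A, with a score of 50.35, and 622 kb from that of PIK3C2B, with a score of 55.23. The peak-free interval was 1033 kb around PIK3C2A and 2055 kb around PIK3C2B, and intervals at least that long made up 6.83% of chromosome 11 and 13.3% of chromosome 1.

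PIK3C3 encodes the class III enzyme, the catalytic core of the complexes that start autophagy and sort endosomal cargo. It lies on chromosome 18 from 39.535 to 39.661 Mb on the plus strand. Its locus held 1 peak and its body none. The peak, at chr18:39690210-39691226, was 1017 bp wide, scored 55.93 and lay 29.7 kb past the end of the gene. On chromosome 18, the sparsest of the chromosomes concerned, 44.4% of windows of that length held at least 1 peak.

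The number of peaks at each locus was then compared with the density of its chromosome, taken as its peaks divided by the span from its first to its last peak. Chromosome densities ran from 2.21 peaks per Mb on chromosome 18 to 5.07 on chromosome 3. At these densities the 10 loci, 3.295 Mb in all, would hold 12.27 peaks, and they held 11, a ratio of 0.897 with an exact Poisson 95% interval from 0.448 to 1.60. The loci took up 0.113% of the summed span of all chromosomes and held 0.106% of the peaks. With 11 peaks, a difference from the chromosomes inside this interval was not detectable.

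Each locus was tested by an exact two-sided binomial test against its chromosome, adjusted by the Benjamini-Hochberg method over 10075 tests, namely the 10 loci and 10065 windows of 290 kb that tile 23 chromosomes. None of the 10 loci passed an adjusted p of 0.05, and all adjusted p-values were 1. At a limit of 0.05 divided by the 10075 tests, from 7 peaks (PIK3CG) to 12 (PIK3CB and PIK3C2G) were needed. Only a large excess could therefore pass. Of the windows, 1 was called higher (0.00994%) and 0 were called lower. Windows this short could hardly be called lower, since 0 peaks in the 286 kb of the PIK3CA locus would give an exact p of 0.413. At an unadjusted p under 0.05 there was 1 locus, PIK3R3, where 3.98% of windows reached the same limit on the higher side and 0% on the lower.

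PIK3R3 held 3 peaks where 0.797 would be given by the density of chromosome 1, a ratio of 3.77 with an interval from 0.777 to 11.0 (exact binomial p = 0.0468 unadjusted, adjusted p = 1). The third of these peaks was the one 1.06 kb inside the edge. With flanks of 50 kb, which leave it out, the locus held 2 peaks at a ratio of 3.81 (exact p = 0.0977), and in the gene body alone the same 2 peaks gave a ratio of 7.91 (exact p = 0.027). With 100 kb flanks and peak-free intervals over 3 Mb taken out of the span, the ratio was 3.335 (exact p = 0.0627). It was 3.79 (exact p = 0.0529) against the 5 Mb on each side and 2.90 (exact p = 0.087) against the whole list. PIK3CA held 3 peaks where 1.45 would be given, a ratio of 2.07 with an interval from 0.427 to 6.05 (exact p = 0.179). For both loci the interval of the ratio includes 1.

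At the remaining loci the counts were within counting error of their chromosomes by the same test. PIK3CB held 2 peaks where 1.94 would be given (exact p = 0.721), PIK3C2G 2 where 2.27 would be given, and PIK3C3 1 where 0.72 would be given (exact p = 0.514). The 5 loci without a peak would have held from 0.606 (PIK3CG) to 1.59 (PIK3C2A). At such lengths no absence can be called, since a count of 0 gave an exact p of 0.417 at PIK3C2A, 0.655 at PIK3R1 and 1 at PIK3CD, PIK3CG and PIK3C2B. Their 0 peaks allow up to 11.1 peaks per Mb at PIK3C2A and up to 15.3 at PIK3CG, the upper bounds of the exact Poisson 95% intervals. In the other direction, between 3 and 6 peaks were needed for an unadjusted p under 0.05.

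**Figure D2:**
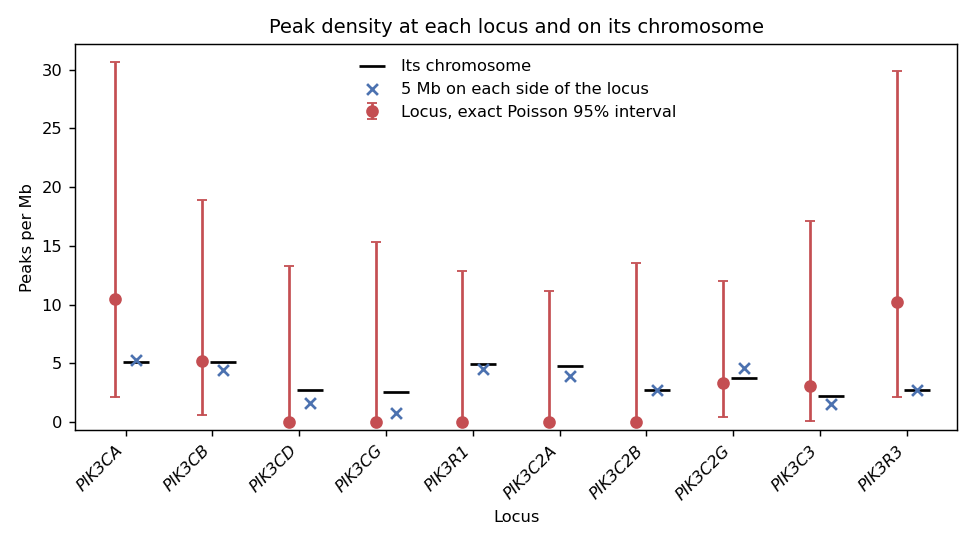
Peaks per Mb at each locus (points, with exact Poisson 95% intervals), on its whole chromosome (black bars) and in the 5 Mb on each side of the locus (crosses). The interval of each of the 10 loci includes the density of its chromosome; the highest values are 10.5 per Mb at PIK3CA and 10.2 per Mb at PIK3R3.

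The surroundings of the loci were compared next. In the 5 Mb on each side, the density was 5.30 per Mb around PIK3CA and 0.8 per Mb around PIK3CG, which was 1.05 and 0.318 times that of their chromosomes. Around PIK3CD it was 1.6 per Mb, 0.588 times that of chromosome 1. PIK3C2B and PIK3R3, on the same chromosome, each had 27 peaks in their surroundings, 0.993 times its density, although the first locus held no peak and the second held 3. Against the density of these surroundings the 10 loci would hold 11.19 peaks, a ratio of 0.983.

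**Figure D3:**
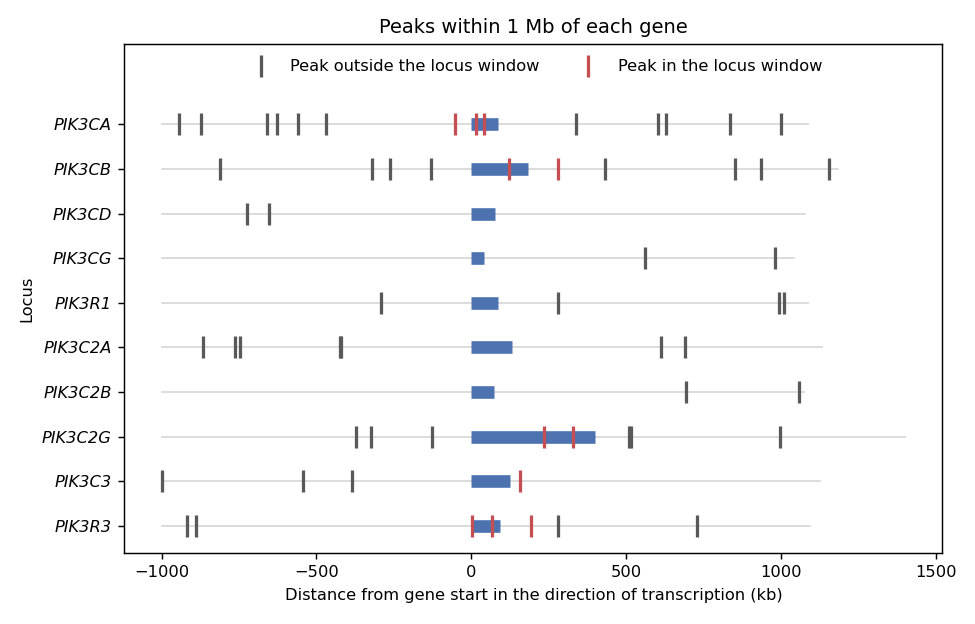
Peaks from 1 Mb before to 1 Mb after each gene body. The x axis is the distance in kb from the gene start in the direction of transcription, blue bars are gene bodies, red ticks are peaks of the locus and grey ticks are other peaks; PIK3CA has 14 peaks in view, while PIK3CD, PIK3CG and PIK3C2B have 2 each.

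Grouped by the role of the protein, the 4 loci of class I catalytic subunits held 5 peaks where their chromosomes would give 4.75, a ratio of 1.05 (95% interval 0.342 to 2.46). The 2 loci of regulatory subunits held 3 where 2.21 would be given, all of them at PIK3R3. The 3 class II loci held 2 where 4.60 would be given, a ratio of 0.435 (95% interval 0.0527 to 1.57), and the class III locus held 1. All of these intervals include 1 and overlap each other, so no order between the classes can be read from them. The 2 loci on chromosome 3, the chromosome with 1003 of the peaks, held 5 of the 11 peaks at a ratio of 1.48, and the 8 loci elsewhere held 6 at a ratio of 0.676 (95% interval 0.248 to 1.47).

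Peaks inside the genes were set beside those in the flanks. Of the 11 peaks, 7 lay in the gene bodies, which make up 1.295 Mb, and 4 in the flanks, which make up 2 Mb. The density was 5.41 per Mb in the bodies (95% interval 2.17 to 11.1) and 2 per Mb in the flanks (95% interval 0.545 to 5.12), and these intervals overlap. Of the flank peaks, 1 was upstream (PIK3CA) and 3 were downstream (PIK3CB, PIK3C3 and PIK3R3). The bodies held 1.41 times the number their chromosomes would give (95% interval 0.567 to 2.90). Whether the 7 peaks lie in exons or introns was not analysed here.

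The ratio to chromosome density was followed as more sequence around the genes was taken in. It was 1.41 for the gene bodies alone, 0.928 with 50 kb on each side and 0.869 with 200 kb, where 17 peaks were counted. With 500 kb there were 29 peaks where 41.48 would be given, a ratio of 0.699 (95% interval 0.468 to 1.004). With 1000 kb there were 60 where 77.99 would be given, a ratio of 0.769 (95% interval 0.587 to 0.990). These wider windows contain the narrower ones, so the ratios are not separate measurements. The intervals treat peaks as independent and are too narrow where peaks cluster. The interval at 1000 kb was therefore not read as a lack of peaks around these genes, and no test was run on it. At 1000 kb, PIK3CD, PIK3CG, PIK3R1 and PIK3C2B had from 0.354 to 0.391 times their chromosome's density, while PIK3CA had 1.32 and PIK3R3 1.23 times.

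**Figure D4:**
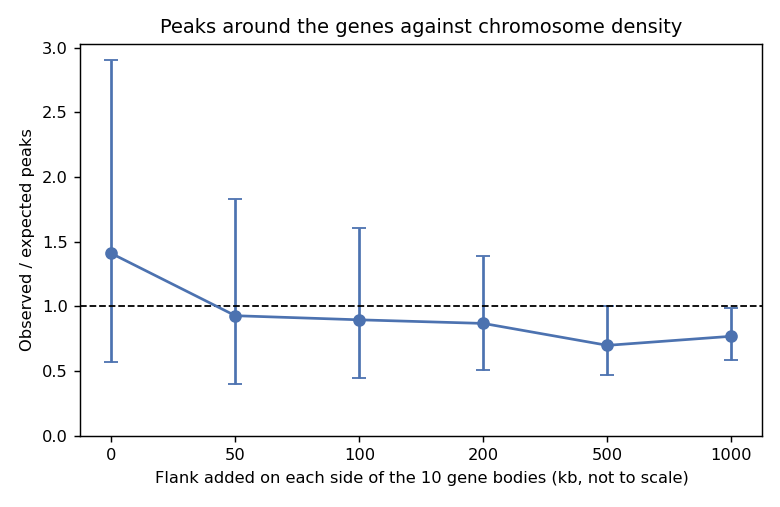
Ratio of the peaks counted to the number that chromosome density gives, for the 10 gene bodies with flanks of 0 to 1000 kb on each side (x axis, not to scale). Points are ratios, bars are exact Poisson 95% intervals and the dashed line marks a ratio of 1; the ratio goes from 1.41 without flanks to 0.769 at 1000 kb.

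The scores of the 11 peaks ran from 50.15 to 66.15. Their median was 54.41, beside 58.8 in the whole list, and 8 of the 11 peaks lay below the list median. A score under 60 was found in 9 of the 11 peaks and in 54.3% of the list. The 3 peaks at or above the list median were the peak past PIK3CB, the peak near the start of PIK3R3 and the first of PIK3C2G. None reached 68.4, the upper quartile of the list. Since peaks are not replicates, the difference between the medians was not tested.

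Widths were ordinary. They ran from 737 bp in PIK3C2G to 1112 bp in PIK3R3 with a median of 935 bp, beside 960 bp in the list, and 7 of the 11 lay between the quartiles of the list at 838 and 1076 bp. The 3 narrowest, 737, 739 and 776 bp wide, were inside PIK3C2G and PIK3CB. Within a locus, neighbouring peaks were 27.6 to 159 kb apart, and the closest pair was the 2 peaks inside PIK3CA. The length of the locus sets an upper limit on these distances.

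**Figure D5:**
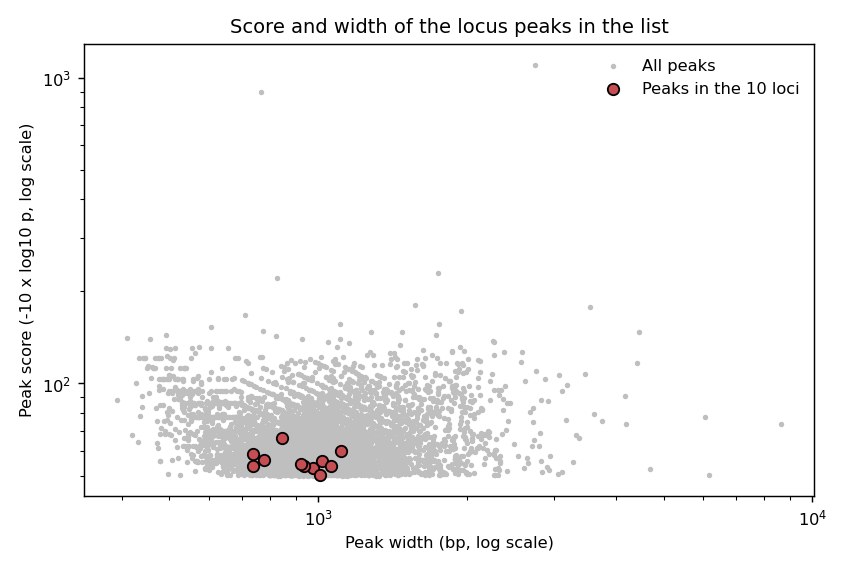
Width in bp (x axis, log scale) and score as -10 x log10 of the p-value (y axis, log scale) of all 10342 peaks (grey) and of the 11 peaks in the 10 loci (red). The locus peaks lie between 737 and 1112 bp and between scores of 50.15 and 66.15, while the list reaches 1102.83.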

How the data were processed

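ChIP-seq of MDA-MB-231 cells gave 1 peak list from 2 libraries. The submitters' processing notes name Bowtie2 2.1.0 and hg19, the build used here. The authors deposited for each peak a score from MACS (version not given in the sources used here), taken to be log10 of the p-value times -10, since the lowest score of 50 is what the p limit of 1e-05 in the name of the list would give. To each deposited start, 1 was added. Treatment of duplicates and of artefact-prone regions is not stated, and depth is unknown.

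All 10 genes and each of their peaks are named by rule. Members and lists were chosen with earlier results of these data known. Locus intervals came with the gene list and have a precision of 1 kb, strands from RefSeq. Exact binomial tests compared locus with chromosome, adjusted over loci and windows of 290 kb except on Y; they treat peaks as independent. The test was checked on simulated lists. Apart from peaks added at some loci, those lists placed peaks at random along each chromosome, so clustering as in real lists was not covered. The tools were scipy 1.17.1, numpy 2.4.6, pandas 2.3.3, matplotlib 3.10.9 and Python 3.11.15. Other pathway genes were not analysed here, since their hg19 positions were not at hand. Alternatives changed the flank, the placing of peaks, the score limit, merging and the source of the density.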

Additional observations from a re-analysis of the deposited data

How the results depend on the processing

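None of the 10 loci was called in any of the alternatives run, by the exact binomial test, with a lowest adjusted p of 0.337. In the main setting only a large excess could pass, so the lack of calls is no measure of stability. Of the background windows, 1 was called in the main setting, 3 when sliding, 46 with flanks of 1000 kb, whose windows are longer, and 0 or 1 in the others. The number of peaks followed the flank by construction, with 7 peaks at 0 kb, 17 at 200 kb, 29 at 500 kb and 60 at 1000 kb, where 10 loci held a peak. With only the upper scores, from the median of the list on, 3 peaks at 3 loci were counted; the cause was not tested. The pooled ratio stayed between 0.498 (upper scores) and 1.41 (no flank), inside the interval of the main value. For single loci, 14 of 100 ratios changed side of 1, none of them called. PIK3C2G went to 1.32 at 0 kb, 1.06 at 50 kb, 1.65 at 200 kb and 1.32 at 500 kb. PIK3C3 went to 0 at 0 kb, 0.86 at 200 kb, 0.804 at 500 kb, 0.851 at 1000 kb, 0 with the upper scores and 0.868 against the density of the whole list. PIK3CB went to 0.699 at 50 kb and 0.904 at 1000 kb, and PIK3CA to 0.908 at 500 kb and 0 with the upper scores. No paired analysis was possible because there is 1 library of each kind. Gene models on hg19 and the other pathway genes were not run. Unknown depth and single libraries limit each count.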
